A study of Mus musculus with 14 samples.

Results

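Immediate early and heat shock genes were followed in LSECs (liver sinusoidal endothelial cells), whose fenestrated walls form the capillaries of the liver. The set was a list of 46 gene symbols, 36 immediate early and 10 heat shock, chosen with earlier results of these data known. Its members were found by matching symbols to the targets of the count files. Of the 46, 42 matched a target among the 23930 in each file, and 39 of these (33 immediate early and 6 heat shock) had enough reads to be tested beside the 14168 tested targets. The other 4 heat shock genes, Hspa8, Hspb1, Dnaja1 and Hsp90aa1, matched no target and were not analysed here. Egr2 with 0 to 4 reads per library, Nr4a3 with 0 to 12 and Socs3 with 1 to 20 matched but were too low for the test.

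The cells came from wild-type female C57BL/6J mice, and the labels name no engineered allele and no agent for either group. They were taken from liver by flow cytometry as CD45-dim, STAB2-high and CD146-high cells. Aged mice were 10 to 11 months old and young mice 8 to 10 weeks old, with 7 libraries per age. Experiment 1 held 3 libraries per age and experiment 2 held 4. A library is named here by its age, experiment and replicate, so that young 2.2 is the young replicate 2 of experiment 2. The series title concerns p38 MAP kinase and ETS1 signalling to Bmp6 in LSECs, and the comparison asks what differs between the ages. Whether each library is a separate mouse is not stated, and p-values then measure only how far these libraries spread, which may be partly technical.

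Immediate early genes are transcribed within minutes of a stimulus, without new protein synthesis, when MAP kinases, serum response factor, CREB or NF-kB act on their promoters. Many encode transcription factors such as FOS, JUN and EGR1, and others encode phosphatases and inhibitors that switch the same pathways off. Heat shock genes encode chaperones, and their inducible members are driven by heat shock factor 1 when proteins misfold. In endothelium several of these genes also respond to blood flow. Members of both groups are known to respond in cells that are freed from tissue and sorted, and for the isolation no times are given in the sources used here.

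Libraries held 6710403 to 13977361 gene reads, and levels are given as CPM, counts per standard library size after TMM (trimmed mean of M values) scaling. The panel reads 1 short amplicon per gene, so levels are compared between libraries and not between genes. All 11 LSEC markers were detected and summed to 21021 to 35929 CPM for aged mice and 25560 to 38764 CPM for young mice. Among them Fcgr2b was low, at 18.2 to 63.4 CPM. The 5 leukocyte markers summed to 25.1 to 956 CPM in aged libraries (median 172) and 21.9 to 294 CPM in young libraries (median 30.8). None of these 5 was at 0 in any library and none passed the age test. Macrophage markers (12 listed) summed to 37.5 to 294 CPM for aged mice (median 121) and 37.2 to 119 CPM for young mice (median 52). B cell markers summed to 2.5 to 191 CPM in aged libraries (median 8.65) and 1.55 to 45.3 CPM in young libraries (median 2.85). For T and NK cell markers the sums were 5.16 to 395 CPM in aged libraries (median 21.8) and 2.38 to 149 CPM in young libraries (median 12.2). Monocyte and neutrophil markers summed to 15.7 to 1234 CPM in aged libraries (median 263) and 17.3 to 220 CPM in young libraries (median 65.8). Hepatocyte markers summed to 414 to 4458 CPM in aged libraries (median 1161) and 338 to 1767 CPM in young libraries (median 738). Targets of taste, vomeronasal and olfactory receptors, which are silent in liver endothelium, took 0.145 to 3.15% of gene reads. Such reads stood at 2.90% in young 2.2 and 2.78% in aged 2.4, the highest values of experiment 2.

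Immediate early and heat shock members lay lower in most aged than young libraries, but no member passed the test of age. Of the 39 members tested over both experiments, 0 were called (Benjamini-Hochberg adjusted p under 0.05), against 23 of 14168 targets (0.162%). At an unadjusted p under 0.05, 17 members (43.6%; 13 immediate early and 4 heat shock) were lower in aged libraries and 0 were higher, where 3.34% of all targets were lower. The fitted value was lower in aged libraries for 36 members (92.3%), where 50.4% of all targets were. The exceptions were Jund, Dusp2 and Hspe1. The median log2 fold change, aged over young, was −0.62 over the members and −0.002 over all targets. The members were chosen with earlier results of these data known, and most immediate early members vary together between libraries. These shares therefore describe the list and do not count independent genes.

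The count of 17 depended on single libraries. It was 26 without young 2.2 (6.66% of all targets were lower there), 9 without young 2.3 (2.32%), 10 without young 1.1 (2.58%) and 10 without young 2.4 (2.06%). Without both young 2.2 and aged 2.4 it was 26 (6.72%). With a term for the leukocyte markers, whose median sum was higher in aged libraries although their ranges overlapped, 2 members, Dnajb1 and Hsph1, were lower at an unadjusted p under 0.05 (1.94% of all targets were) and the members' median was −0.46. In sorted bulk RNA, fewer cells of a type and less RNA per cell cannot be told apart. DESeq2, run as an alternative, called 3 members lower, Dnajb1, Atf3 and Csrnp1, where 0.572% of all targets were called lower.

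**Figure D1:**
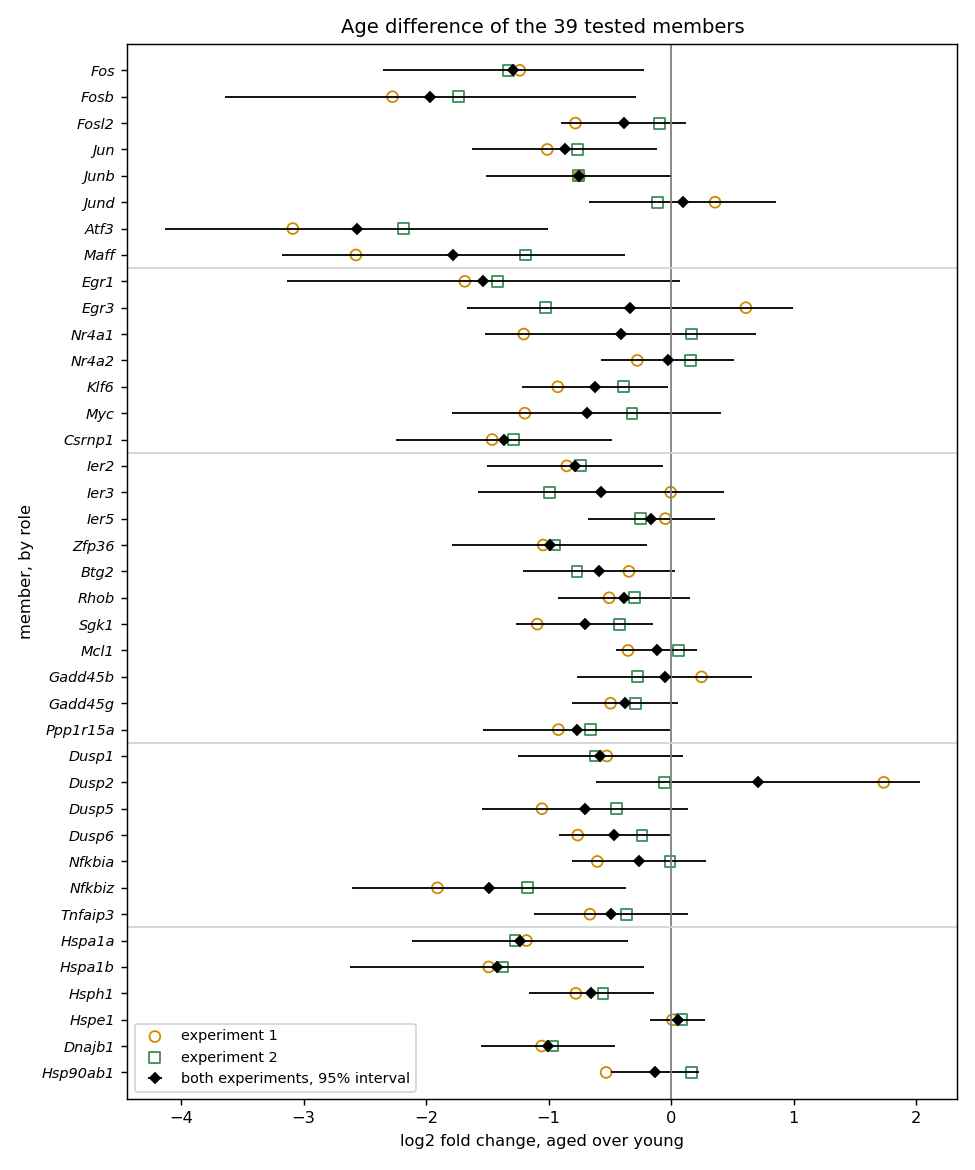
Log2 fold change, aged over young, of the 39 tested members by role. Diamonds are the fit over both experiments with 95% intervals, open circles experiment 1 and open squares experiment 2, and 36 of the 39 diamonds lie left of 0.

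The separation of the ages was counted within each experiment. In experiment 1, 24 of 39 members (61.5%; 20 immediate early and 4 heat shock) had every aged library below every young library, against 12.2% of all targets. In experiment 2 this held for 0 of 39 members, against 0.466% of targets, so the count says nothing about the members, and full separation is rarer with 4 libraries per age than with 3. The fitted value was lower in aged libraries for 34 of 39 members in each experiment (45.7% of all targets in experiment 1 and 50.4% in experiment 2), with a median of −0.78 in experiment 1 and −0.56 in experiment 2. Within experiment 1, 0 members were called (0% of targets called) and 10 were lower at an unadjusted p under 0.05, against 3.88% of targets. Within experiment 2, 0 members were called (0.00706% of targets called) and 4 were lower at an unadjusted p under 0.05 (Atf3, Csrnp1, Hspa1a and Dnajb1), against 1.1% of targets. The difference between the experiments' age contrasts was called for 0 members (0% of targets called), with Hsp90ab1 as the 1 member at an unadjusted p under 0.05, where 2.18% of targets were.

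The AP-1 transcription factors and their partners (Fos, Fosb, Fosl2, Jun, Junb, Jund, Atf3 and Maff) had a median log2 fold change of −1.08. Of these, 5 of 8 were lower at an unadjusted p under 0.05, against 3.34% of all targets. Counts by role, here and below, split the 17 members given above and are not separate findings. Fos, the founding AP-1 subunit, ran from 328 to 1582 CPM in aged libraries (median 1159) and from 316 to 4186 CPM in young libraries (median 2450). Every aged library of experiment 1 lay below its young libraries, while in experiment 2 young 2.2 at 316 CPM was the lowest of all 14 and young 2.3 the highest. Mean Fos was 1039 ± 494 CPM in the aged and 2533 ± 1535 CPM in the young group (SD, n = 7 each), a fitted 2.44-fold lower level (95% interval 1.17 to 5.11, adjusted p = 0.648). The intervals here and below are not adjusted for the number of targets.

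Jun encodes the partner with which FOS binds DNA. It ran from 1356 to 3945 CPM in aged libraries (median 2894) and from 1299 to 8544 CPM in young libraries (median 5179). All 7 aged libraries lay below the young mean of their experiment on the log2 scale, although young 2.2 was again the lowest library. The fitted level was 1.83-fold lower in aged libraries (1.08 to 3.08, adjusted p = 0.675).

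Fosb, a FOS relative, ranged from 4.14 to 138 CPM in aged libraries (median 77.3) and from 6.21 to 640 CPM in young libraries (median 188). Aged 2.2 and young 2.2 were both near the floor of this range, 1 of each age. The fit gave a 3.91-fold lower level (1.22 to 12.5, adjusted p = 0.672).

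Atf3, a stress-induced factor that often acts as a repressor, showed the largest fitted difference of the members. Its levels were 30, 32.7 and 9.89 CPM in the aged libraries of experiment 1 and 420, 129 and 68.7 CPM in its young libraries. In experiment 2 they were 65, 19.6, 104 and 44.6 CPM in the aged and 81.4, 8.33, 465 and 511 CPM in the young libraries. The ages did not overlap in experiment 1, and in experiment 2 young 2.2 alone fell below all aged libraries. The fitted level was 5.93-fold lower in aged libraries (2.01 to 17.5, adjusted p = 0.451). DESeq2 gave the same direction with a log2 fold change of −2.58 (DESeq2 adjusted p = 0.031), and over all 23 alternatives the adjusted p ran from 0.031 to 1.0.

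Maff encodes a small MAF protein without an activation domain. It was sparse, with 2.19 to 11.6 CPM in the aged and 3.70 to 52.0 CPM in the young libraries. Young 1.1, 2.3 and 2.4 stood above every aged library and the other 4 young libraries did not. The fit gave a 3.43-fold lower level (1.30 to 9.06, adjusted p = 0.629).

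Junb and Fosl2 had fitted values 1.68-fold and 1.31-fold lower in aged libraries (adjusted p = 0.739 and 0.951). Jund was the exception in this group. It stayed between 2.22 and 10.4 CPM and differed by 0.09 on the log2 scale (adjusted p = 0.999).

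**Figure D2:**
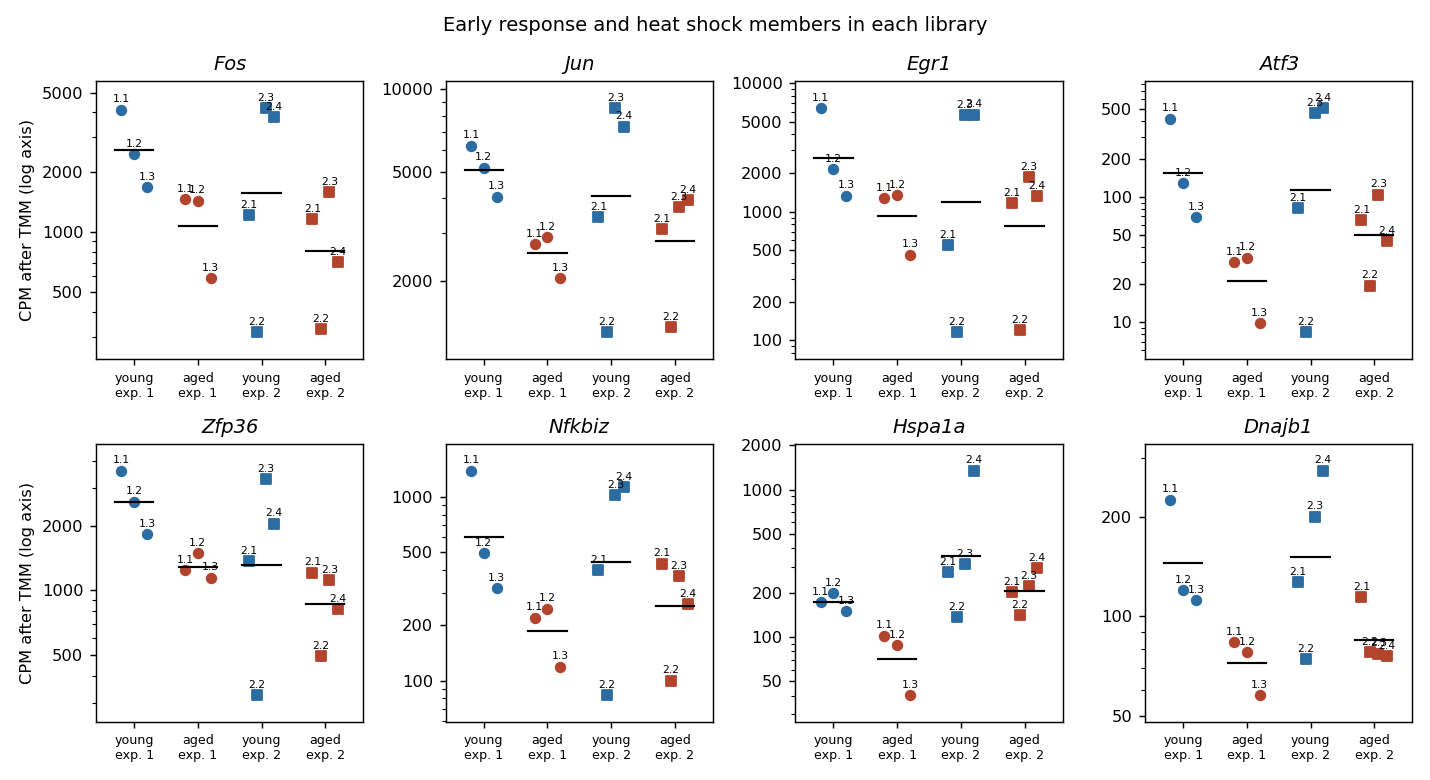
CPM after TMM of 8 members in each library on log axes, by age and experiment, with circles for experiment 1, squares for experiment 2, replicate numbers beside the points and bars at the mean on the log scale. Young 2.3 and 2.4 lie at the top and young 2.2 at or near the bottom of experiment 2.

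Of the other transcription factors, 7 of 9 were tested, and their median was −0.62. At an unadjusted p under 0.05, 2 were lower, against 3.34% of all targets. Egr1, a zinc finger factor induced through serum response factor, ran from 120 to 1867 CPM in aged libraries (median 1271) and from 116 to 6414 CPM in young libraries (median 2145). Young 1.1, 2.3 and 2.4 lay between 5643 and 6414 CPM, and aged 2.2 and young 2.2 lay together at the bottom. The ages overlapped in both experiments, with young 1.3 at 1334 CPM and aged 1.2 at 1341 CPM. Egr1 was 2.89-fold lower in aged libraries by the fit (0.951 to 8.80, adjusted p = 0.771).

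Csrnp1, a nuclear protein of the cysteine-serine-rich family, ran from 89.4 to 394 CPM in aged libraries (median 141) and from 160 to 957 CPM in young libraries (median 278). All 7 aged libraries lay below the young mean of their experiment, and young 2.2 at 160 CPM was above aged 2.2 at 89.4 CPM. The fit gave a 2.57-fold lower level (1.40 to 4.74, adjusted p = 0.46). With DESeq2 its log2 fold change was −1.37 (DESeq2 adjusted p = 0.0423), and the adjusted p ran from 0.0423 to 1.0 over 23 alternatives.

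Klf6, a zinc finger factor, ran from 87.8 to 216 CPM in aged libraries (median 121) and from 80.1 to 381 CPM in young libraries (median 201). Its fitted level was 1.54-fold lower (1.02 to 2.32, adjusted p = 0.72). The nuclear receptor genes Nr4a1 and Nr4a2 had opposite fitted signs in the 2 experiments, −1.20 and 0.17 for Nr4a1 and −0.28 and 0.16 for Nr4a2. Myc had a fitted log2 fold change of −0.69 and Egr3, which never passed 3.81 CPM, of −0.34 (adjusted p = 0.999 for both).

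All 11 members of the mixed group of other early response genes had lower fitted values in aged libraries (50.4% of all targets did), with a median of −0.57. Zfp36 encodes tristetraprolin, which binds AU-rich messages and speeds their decay. Its level ran from 497 to 1490 CPM in aged libraries (median 1147) and from 327 to 3608 CPM in young libraries (median 2046). All 7 aged libraries lay below the young mean of their experiment, and young 2.2 was the lowest of the 14. Zfp36 was 1.99-fold lower by the fit (1.14 to 3.45, adjusted p = 0.643).

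Ier2, a nuclear protein of the early response, ran from 104 to 281 CPM in aged libraries (median 166) and from 87.4 to 503 CPM in young libraries (median 269). Young 1.1, 2.3 and 2.4 stood above every aged library. The fitted level was 1.73-fold lower (1.05 to 2.84, adjusted p = 0.693).

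Sgk1 encodes a kinase induced by serum, glucocorticoids and flow. It ran from 439 to 1235 CPM in aged libraries (median 737) and from 673 to 1847 CPM in young libraries (median 1299). In experiment 1 the ages were apart, with aged libraries at 439 to 750 CPM and young ones at 966 to 1847 CPM. The fitted level was 1.63-fold lower (1.10 to 2.41, adjusted p = 0.636).

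Ppp1r15a, which directs protein phosphatase 1 to the translation factor eIF2 alpha, was 1.70-fold lower by the fit (adjusted p = 0.732). Btg2, an antiproliferative gene, was 1.5-fold lower (adjusted p = 0.789), with all 7 aged libraries below the young mean. Rhob, which encodes a small GTPase, was 1.31-fold lower (adjusted p = 0.988). The survival gene Mcl1 and the stress gene Gadd45b lay near 1, at 1.08-fold and 1.04-fold lower (adjusted p = 0.999 for both). The survival-linked gene Ier3 was 1.49-fold, the nuclear factor gene Ier5 1.12-fold and the stress gene Gadd45g 1.3-fold lower (adjusted p = 0.999, 0.999 and 0.836).

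Feedback inhibitors, which turn MAP kinase, STAT3 and NF-kB signalling off, had a median of −0.49 over 7 tested members. Nfkbiz encodes a nuclear inhibitor of kappa B that steers NF-kB at a subset of promoters. It ran from 100 to 432 CPM in aged libraries (median 246) and from 83.6 to 1386 CPM in young libraries (median 492). The 3 highest libraries, at 1018 to 1386 CPM, were again young 1.1, 2.3 and 2.4. The fitted level was 2.80-fold lower (1.29 to 6.08, adjusted p = 0.599), and all 7 aged libraries lay below the young mean of their experiment.

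Dusp1, the nuclear phosphatase that inactivates p38 and JNK, ran from 316 to 722 CPM in aged libraries (median 614) and from 255 to 1690 CPM in young libraries (median 792). It was 1.49-fold lower by the fit (0.937 to 2.38, adjusted p = 0.852). Without young 2.3, which stood apart at 1690 CPM, its log2 fold change moved from −0.58 to −0.28, and young 2.1 and 2.4, at 725 and 795 CPM, lay just above the highest aged library.

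Dusp6, the cytoplasmic phosphatase of ERK, ran from 71.6 to 182 CPM in aged libraries (median 149) and from 150 to 250 CPM in young libraries (median 170). It was 1.38-fold lower by the fit (1 to 1.89, adjusted p = 0.731). Young 2.2, at 163 CPM, did not stand low here as it did for Fos and Jun. Nfkbia and Tnfaip3, which encode the NF-kB inhibitors I kappa B alpha and A20, were 1.20-fold and 1.41-fold lower (adjusted p = 0.999 and 0.922). Dusp5, a nuclear phosphatase of ERK, was 1.63-fold lower (adjusted p = 0.872). Dusp2 went the other way with a log2 fold change of 0.71 (adjusted p = 0.999), carried by aged 1.3 at 58.4 CPM, the library with the highest leukocyte sum of 956 CPM. The part of leukocytes in it was not tested.

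Of the 6 tested heat shock members, Dnajb1, Hspa1a, Hspa1b and Hsph1 were lower in aged libraries at an unadjusted p under 0.05 (3.34% of all targets were). Hsp90ab1 and Hspe1 were not, and the median of the 6 members was −0.83. Dnajb1 encodes the HSP40 co-chaperone that hands clients to HSP70. Its levels were 83.6, 78.2 and 58.0 CPM in the aged libraries of experiment 1 and 225, 120 and 112 CPM in its young libraries. In experiment 2 they were 114, 77.9, 77.2 and 75.9 CPM in the aged and 127, 74.4, 200 and 275 CPM in the young libraries. All aged libraries stayed within 58.0 to 114 CPM, and of the young libraries young 2.2 and young 1.3 lay in that range. Mean Dnajb1 was 80.7 ± 16.8 CPM in the aged and 162 ± 72.4 CPM in the young group (SD, n = 7 each), 2.01-fold lower by the fit (1.38 to 2.94, adjusted p = 0.292). This was the smallest adjusted p of the members. The fold was alike in both experiments, at −1.06 and −0.97 on the log2 scale. DESeq2 gave −1.01 (DESeq2 adjusted p = 0.0133), and the adjusted p ran from 0.0133 to 1.0 over 23 alternatives.

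Hspa1a and Hspa1b encode the same inducible HSP70 from neighbouring near-identical genes, so the split of reads between them is uncertain. Hspa1a ran from 40.5 to 292 CPM in aged libraries (median 140) and from 137 to 1343 CPM in young libraries (median 199). Hspa1b ran from 20.4 to 309 CPM in aged libraries (median 65.9) and from 73.4 to 1321 CPM in young libraries (median 131). Young 2.4 stood apart for both genes, at 1343 and 1321 CPM. The ratio of Hspa1a to Hspa1b ran from 0.944 in aged 2.4 to 2.12 in aged 2.2. By the fit Hspa1a was 2.35-fold lower (1.28 to 4.34, adjusted p = 0.547) and Hspa1b 2.68-fold lower (1.17 to 6.17, adjusted p = 0.669). Without young 2.4 the log2 fold change moved from −1.24 to −0.65 for Hspa1a and from −1.42 to −0.57 for Hspa1b.

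Hsph1, the HSP110 that recycles HSP70, ran from 53.2 to 187 CPM in aged libraries (median 78.5) and from 85.3 to 194 CPM in young libraries (median 130). It was 1.57-fold lower by the fit (1.10 to 2.23, adjusted p = 0.629). The ages overlapped in both experiments.

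Hsp90ab1, the constitutive cytosolic HSP90, ran from 966 to 2386 CPM in aged libraries (median 1339) and from 1316 to 1802 CPM in young libraries (median 1453). In experiment 1 its 3 aged libraries lay at 966 to 1085 CPM and its 3 young libraries at 1316 to 1650 CPM, a log2 fold change of −0.53. In experiment 2 the fold change was 0.17 and the ages overlapped. Neither the combined fold, 1.10-fold lower (0.854 to 1.41, adjusted p = 0.999), nor the difference between the experiments (adjusted p = 1) passed the test. Hspe1, the mitochondrial co-chaperonin, varied least of the members, from 61.7 to 103 CPM, and differed by 0.05 on the log2 scale (adjusted p = 0.999).

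Promoter windows of RefSeq on GRCm38.p6, 250 bases before each gene's start, were searched on both strands for motifs of the factors known to drive these genes. The table held 38 of the 46 members, 31 immediate early and 7 heat shock, and 32851 windows in all. Of the immediate early members, Egr1, Egr3, Myc, Ier2 and Nfkbiz had no window and were not searched. The searched motifs were the heat shock element core GAANNTTC, the cyclic AMP response element TGACGTCA, the AP-1 site TGANTCA, the CArG box bound by serum response factor, and the NF-kB site. The heat shock element core was in 5 of 7 heat shock genes (Dnaja1, Hspa1a, Hspa1b, Hspb1 and Hspe1), in 3 of 31 immediate early genes and in 6.69% of all windows. The CArG box was in Dusp5, Egr2 and Zfp36, 3 of 31 immediate early genes, and in 1.47% of windows. The cyclic AMP response element was in Btg2, Dusp1, Maff and Ppp1r15a, 4 of 31, and in 1.55% of windows. The AP-1 site was in Csrnp1 and Tnfaip3, 2 of 31, and in 6.75% of windows. The NF-kB site was in 8 of 31 immediate early genes, in 3 of 7 heat shock genes and in 7.25% of windows. The windows of Hspa1a and Hspa1b differed at 3 of 250 positions. A gene can have several windows, and a match describes letters only. Sites farther than 250 bases before the start were not searched, so a gene without a match, such as Fos for the CArG box, may hold one there.

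The 4 windows below show these motifs in promoters of members described above. They are printed in the direction of the gene and end at the base before its start, with matched motifs in capitals. Zfp36 holds a CArG box, Ppp1r15a a cyclic AMP response element, and Hspa1a and Hspe1 each an NF-kB site and a heat shock element core.
Zfp36, chr7:28379229-28379478, minus strand: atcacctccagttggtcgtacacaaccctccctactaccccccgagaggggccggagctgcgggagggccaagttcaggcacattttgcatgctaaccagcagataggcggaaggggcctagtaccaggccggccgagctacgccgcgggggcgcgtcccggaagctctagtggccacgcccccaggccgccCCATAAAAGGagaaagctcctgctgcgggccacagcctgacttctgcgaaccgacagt
Ppp1r15a, chr7:45526269-45526518, minus strand: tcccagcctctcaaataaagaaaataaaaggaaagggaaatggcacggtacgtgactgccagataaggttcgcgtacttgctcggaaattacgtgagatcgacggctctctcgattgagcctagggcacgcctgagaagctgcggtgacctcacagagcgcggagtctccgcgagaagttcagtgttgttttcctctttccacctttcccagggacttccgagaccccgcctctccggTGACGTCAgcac
Hspa1a, chr17:34972157-34972406, minus strand: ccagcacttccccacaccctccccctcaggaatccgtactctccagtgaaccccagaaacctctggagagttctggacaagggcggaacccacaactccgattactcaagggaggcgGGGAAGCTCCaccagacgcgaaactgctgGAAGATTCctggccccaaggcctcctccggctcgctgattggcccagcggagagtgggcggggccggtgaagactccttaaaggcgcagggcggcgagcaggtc
Hspe1, chr1:55087898-55088147, plus strand: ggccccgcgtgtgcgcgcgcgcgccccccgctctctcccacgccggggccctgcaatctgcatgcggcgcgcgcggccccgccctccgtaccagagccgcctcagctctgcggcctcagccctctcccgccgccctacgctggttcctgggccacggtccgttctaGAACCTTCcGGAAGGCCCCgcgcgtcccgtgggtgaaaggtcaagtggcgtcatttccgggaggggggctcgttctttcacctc

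The members varied between libraries more than most targets did. The SD of log2 CPM within age and experiment had a median of 0.75 over the 39 members and 0.415 over all tested targets. Among targets with a mean of at least 20 CPM it was 0.68 for 32 members and 0.30 for all 6987. The highest library exceeded the lowest 154-fold for Fosb, 61.3-fold for Atf3, 55.1-fold for Egr1, 64.9-fold for Hspa1b and 13.2-fold for Fos. Fosb and Egr1 had a larger SD than 99.8% of the targets with at least 20 CPM, and Atf3 than 99.7%. At the other end, the highest library exceeded the lowest 1.67-fold for Hspe1 and 1.91-fold for Mcl1. Hspe1 had a larger SD than 9.66% of targets and Hsp90ab1 than 31.0%.

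Among targets with at least 20 CPM, 555 had an SD of at least 1. Of these, 457 (82.3%) had a positive term for the reads on silent receptor targets at an adjusted p under 0.05. Receptor targets were not left out of the 555, and such a target tends to rise with its own sum by construction. How many of the 457 are receptor targets was not counted, so 82.3% is not a neutral share for the members. Among the members 8 had such an SD: Fos, Fosb, Atf3, Egr1, Nr4a1, Myc, Nfkbiz and Hspa1b. None of these 8 had a positive term, and 1 of them, Fos, had a negative term.

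**Figure D3:**
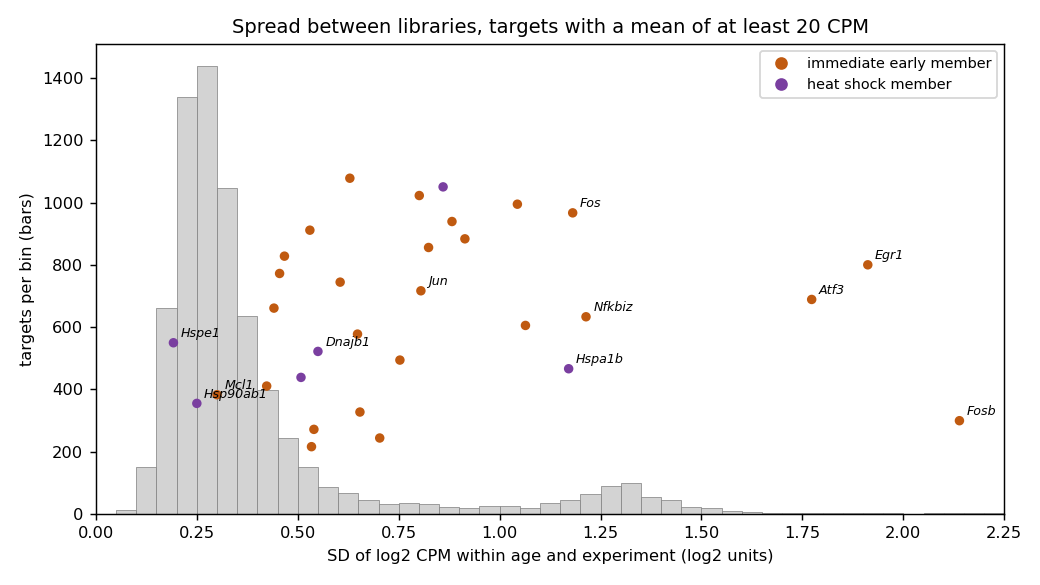
SD of log2 CPM within age and experiment for targets with a mean of at least 20 CPM (bars, number of targets per bin) and for the 32 members among them (points, whose height has no meaning). Fosb, Egr1 and Atf3 lie far to the right and Hspe1 and Hsp90ab1 among the bulk of targets. Another 9 targets lie beyond the axis.

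Most immediate early members varied together from library to library. Young 2.2 was the lowest of the 14 libraries for 16 of 33 immediate early members, and aged 2.2 for 5. Young 2.2 also had the fewest gene reads, 6710403, and the part of depth was not tested. The highest library was young 2.3 for 12 members, young 1.1 for 8 and young 2.4 for 7. After removing the mean of each age within each experiment, the median Pearson r between pairs of immediate early members was 0.65 (528 pairs), and 45.1% of pairs exceeded 0.7. Between all targets with at least 20 CPM the median was 0.22 and 10.1% of pairs exceeded 0.7. For the 26 immediate early members with at least 20 CPM the median was 0.74. These correlations are descriptions over 14 libraries, which share depth and composition.

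Nfkbiz followed the mean of the other immediate early members most closely (r = 0.98), ahead of Atf3 (0.97), Zfp36 (0.95) and Fos (0.95). Jund (−0.52), Dusp2 (−0.26), Ier5 (−0.12), Gadd45b (0.04), Nr4a2 (0.14) and Dusp6 (0.29) did not follow it. Heat shock members were less alike, with a median pairwise r of 0.03 over 15 pairs. Against the mean of the other heat shock members, Hspa1a (0.82), Dnajb1 (0.81) and Hspa1b (0.74) stood above Hsph1 (0.13), Hsp90ab1 (0.13) and Hspe1 (−0.05). Hspa1a and Hspa1b each enter the other's mean and may share reads, which can raise their r.

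**Figure D4:**
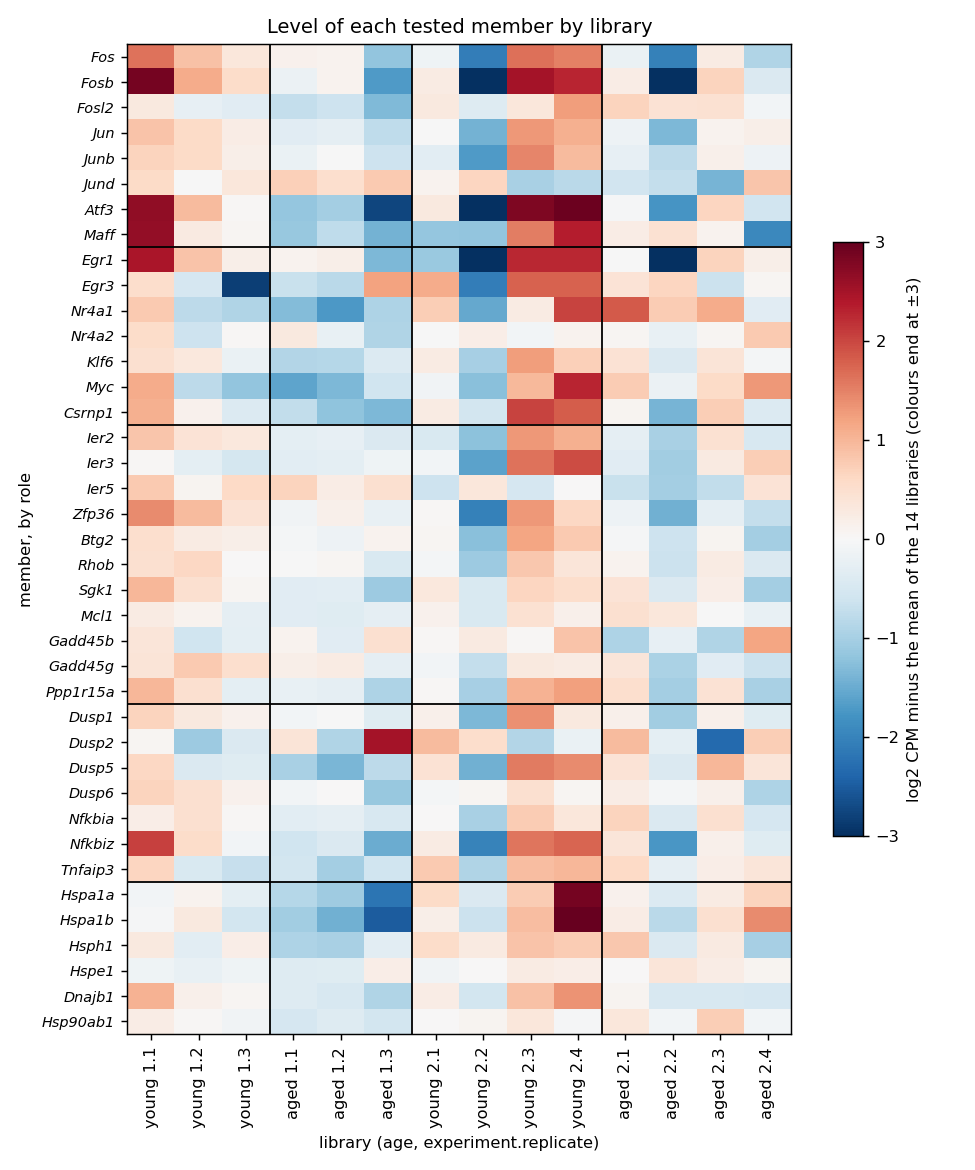
Log2 CPM of each tested member minus its mean over the 14 libraries, with members grouped by role in rows and libraries by experiment and age in columns. Young 2.2 and aged 2.2 are blue, and young 1.1, 2.3 and 2.4 red, across most immediate early members.

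The mean log2 CPM of the 33 immediate early members, used as a score, ran from 5.86 to 6.85 in aged and from 5.54 to 7.71 in young libraries. Aged minus young was −0.56 over both experiments, −0.76 in experiment 1 and −0.42 in experiment 2, against an SD of 0.66 within age and experiment. The young libraries of experiment 2 alone held both the lowest score, 5.54 in young 2.2, and the highest, 7.71 in young 2.4. The SD of the score was 0.79 over young and 0.35 over aged libraries.

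The heat shock score, over 6 members, ran from 6.41 to 7.72 in aged and from 7.24 to 8.89 in young libraries. Its difference was −0.63 (−0.86 in experiment 1 and −0.46 in experiment 2), against an SD of 0.43 within age and experiment. In experiment 1 the ages were apart, with 6.41 to 6.77 in aged and 7.31 to 7.67 in young libraries. The 2 scores went together over the 14 libraries (Pearson's r = 0.76, Spearman's rho = 0.86), with r = 0.77 without young 2.2 and young 2.4, 0.90 within experiment 1 and 0.90 within experiment 2. Over members with more than 1 exon the differences were −0.60 for the immediate early and −0.44 for the heat shock score.

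Correlations of the scores with leukocyte and receptor reads were negative, from −0.06 to −0.78. The immediate early score and the mean log2 CPM of leukocyte markers had r = −0.49 over 14 libraries, −0.62 within experiment 1 and −0.51 within experiment 2. Without aged 1.3 and aged 2.2, the libraries with the most leukocyte signal, r was −0.31. For the heat shock score r was −0.35 over 14 libraries, −0.78 and −0.60 within experiments 1 and 2, and −0.06 without aged 1.3 and aged 2.2. With the log2 receptor share the immediate early score had r = −0.44, −0.14 within experiment 1 and −0.60 within experiment 2. The heat shock score had r = −0.61 with that share, −0.39 and −0.42 within the experiments. The part of either in the age difference was not tested beyond the fits with these terms.

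Single-exon genes can be read from DNA as well as RNA by an amplicon, and 8 tested members (Jun, Junb, Jund, Ier2, Ier5, Rhob, Hspa1a and Hspa1b) have 1 exon. The share of reads on the silent receptor targets, on the log2 scale, was therefore fitted as a term beside age and experiment. Among the members 3 had a positive term at an adjusted p under 0.05 (27.5% of all targets did) and 17 a negative one (19.5% did). All targets here include the receptor targets themselves, whose positive term is partly fixed by construction, so 27.5% is not a neutral share. The positive ones were Jund, Ier5 and Gadd45b, the first 2 with 1 exon. Jund was higher by 0.47 on the log2 scale per doubling of the receptor share (edgeR adjusted p = 1.75e-05), from 2.22 CPM in aged 2.3, with the lowest share, to 10.4 CPM in aged 2.4. Ier5 was higher by 0.24 (edgeR adjusted p = 0.00643). Nfkbia had a slope of −0.35 (edgeR adjusted p = 5.65e-05), and Fos of −0.48 (edgeR adjusted p = 0.0321). Of the other members with 1 exon, Junb, Ier2 and Rhob had negative slopes that passed (−0.32, −0.36 and −0.30, edgeR adjusted p = 0.0472, 0.0116 and 0.00251), and Jun, Hspa1a and Hspa1b had terms that did not pass. Of the members with more than 1 exon, 13 of 31 were lower in aged libraries at an unadjusted p under 0.05, and of those with 1 exon 4 of 8. Of all targets 3.34% were.

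**Figure D5:**
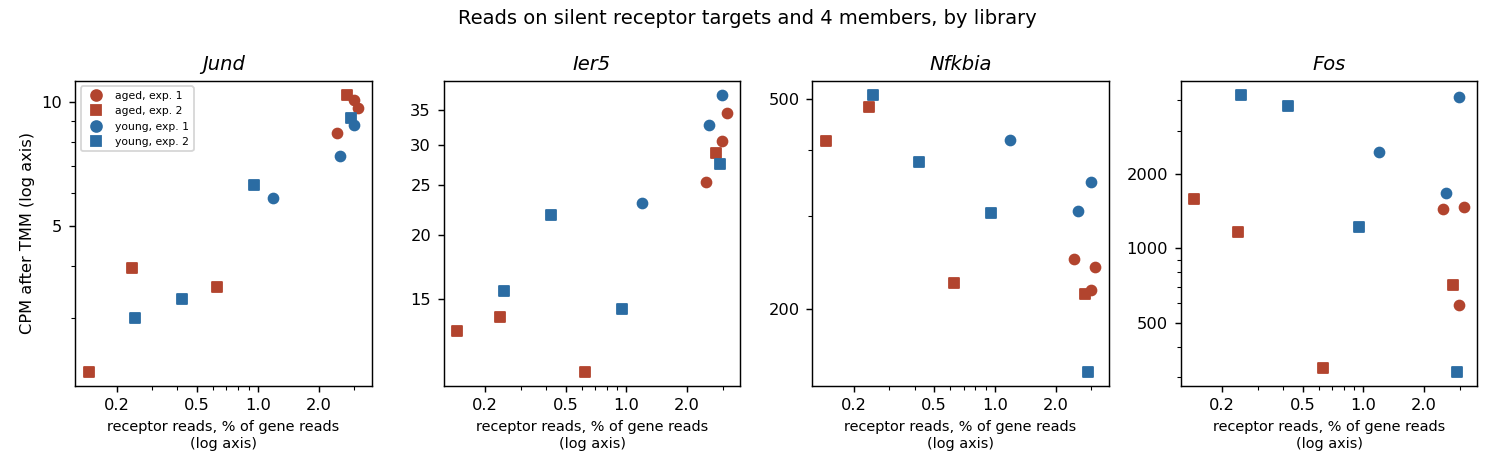
CPM after TMM of Jund, Ier5, Nfkbia and Fos against the share of gene reads on silent receptor targets, both on log axes, 1 point per library with colour for age and shape for experiment. Jund lies between 2.22 and 10.4 CPM and follows the share upward, while Nfkbia goes down with it.

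Other genes of the same pathways had median fold changes nearer to 0 over both experiments. Lower fitted values in aged libraries were most frequent among the chaperones and heat shock regulators. Of all targets, 50.4% had a lower fitted value and 3.34% were lower at an unadjusted p under 0.05. Of 36 tested related early response genes 0 were called, with a median of −0.13 and 24 of 36 fitted values lower. At an unadjusted p under 0.05, 6 were lower (Irf1, Klf2, Hbegf, Ccn1, Spry4 and Trib1) and 0 were higher. Within experiment 1, 24 of these genes had lower and 12 higher fitted values (median −0.20). Within experiment 2, 18 were lower and 18 higher (median −0.001). The flow-responsive factor gene Klf2 had 917 ± 388 CPM at the older and 1599 ± 506 CPM at the younger age (SD, n = 7 each; adjusted p = 0.676). Of 11 kinases upstream 0 were called, Mapk8 was lower at an unadjusted p under 0.05 and the median was −0.12. Their fitted values were lower for 7 of 11, which so few genes cannot tell from the 50.4% of all targets. Mapk14, which encodes p38 alpha, differed by −0.04 (adjusted p = 0.999). Of 29 tested chaperones and heat shock regulators 0 were called, Serpinh1 and Dnajb4 were lower and Cryab higher at an unadjusted p under 0.05, the median was −0.13 and 25 of 29 fitted values were lower. Hsf1, the gene of heat shock factor 1, had 59.7 ± 11.2 CPM at the older and 60.5 ± 5.65 CPM at the younger age (adjusted p = 0.999).

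Outside the list, 19 of 6955 targets with at least 20 CPM had r above 0.9 with the immediate early score within age and experiment. The 10 highest were Ccnl1 (r = 0.97), Cxcl1 (0.96), Adamts1 (0.95), Ddx50 (0.94), Slain2, Ptbp2, Ifrd1, Chd6, Taf7 and Hnrnpd. Cxcl1, a neutrophil chemokine gene, ran from 2.49 CPM in aged 1.3 to 161 CPM in young 2.4, and Adamts1, a secreted protease gene, from 174 CPM in aged 1.3 to 1651 CPM in young 1.1. For the heat shock score 14 targets had r above 0.9. Its 10 highest included Tmpo (0.95), Phactr4 (0.94), Ccn1 (0.94), Ncapd3 (0.93), Prim2, Pdk4, Robo1, Ccp110, Xist and 1 target with no gene symbol.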

How the data were processed

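The 14 deposited files hold raw read counts per RefSeq target of the Ion AmpliSeq mouse transcriptome panel, per the labels, 1 file per library. HTSeq 0.6.0 and DESeq2 1.18.1 were among the authors' tools, per the submitters' processing notes. The aligner, genome build, strand setting and handling of reads that fit several targets were not given in the sources used here. Bookkeeping entries, 1.24 to 3.04% of reads, entered neither library sizes nor tests. Symbols came from RefSeq (GRCm38.p6) and GENCODE tables and matched 22562 of 23930 targets.

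The age difference was fitted with edgeR 4.0.16 in R 4.3.3: TMM scaling, filterByExpr by age, the quasi-likelihood F test with experiment as a term, and p-values adjusted by Benjamini-Hochberg over all 14168 targets. A model with 4 means gave the contrast within each experiment and their difference. A gene was called at an adjusted p under 0.05. Each fold change is aged over young, and its interval follows from the F statistic. Scores and spreads used log2 CPM with a prior count of 2, and have no p. The code was run on simulated counts with known changes, no difference between experiments, and a spread set by the trend over all targets. That run checked the code only, since the members spread more than most targets. Alternatives included DESeq2 1.42.0, no TMM, no filter, terms for receptor reads or leukocyte markers, a replicate block and leaving libraries out.

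Full values are given for the 3 with the smallest p in each role, the 3 with the widest range, and Fos, Jun, Egr1, Hspa1a and Hsp90ab1. The members, gene lists and tests were chosen with earlier results of these data known. Amplicon reads carry no molecular identifiers, so counts are not independent molecules. Single-exon members were taken from GENCODE. The test of the receptor read term and the scores over members with more than 1 exon were added after the data were seen.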

Additional observations from a re-analysis of the deposited data

Results flagged for a closer look

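Among the 21 members and scores examined in the 7 libraries of each age (42 groups), 4 had 1 library far from the rest by Dixon's gap ratio, whose 95% limit for 7 libraries is 0.568. Chance flags about 1 in 20 groups when they are unselected and separate, which these were not. Fosb and Hspa1b were examined because of their wide range between libraries, and Hspa1a and Hspa1b may share reads. Among young libraries, young 2.2 was the low one for Fosb (ratio 0.607) and Zfp36 (0.596), with 6.21 and 327 CPM. Young 2.4 was the high one for Hspa1a (0.642) and Hspa1b (0.624), with 1343 and 1321 CPM.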

How the results depend on the processing

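The members with a lower fitted value numbered 34 to 37 of 39 under the alternatives run, against 36 as reported, and 39 of 42 with no filter. Both score differences kept their sign. No member was called over both experiments under them except with DESeq2, which called 3 lower in aged libraries (Dnajb1, Atf3 and Csrnp1). The count of members lower at an unadjusted p under 0.05, 17 as reported, moved most. It was 2 with the leukocyte term (1.94% of all targets were lower there), 26 without young 2.2 and aged 2.4 (6.72%), and 9 to 26 when single libraries were left out, the lowest without young 2.3, the highest without young 2.2, and 10 without young 1.1 and without young 2.4. It was 22 with the receptor term (6.78%), and the cause of these moves was not tested. With the replicate number as a replicate block it was 19 (2.89%), with 0 members called. Same-numbered aged and young libraries correlated with r from −0.38 to 0.78 in their deviations, so the numbers are not taken to pair them. The 19 members given in full kept a lower fitted value in aged libraries under each of their 23 alternatives. They were picked mostly by small p in the main fit, where all 19 were lower, so this was largely set by the choice. Jund, Dusp2 and Hspe1, which were higher in the main fit, were not among them. With the leukocyte term the log2 fold change was −0.52 for Egr1, −0.73 for Fos, −1.63 for Atf3, −0.59 for Hspa1a and −0.48 for Hspa1b. With 7 libraries per age and the wide spread of these genes, intervals were wide, such as 1.17 to 5.11-fold for Fos. That interval is not adjusted for the number of targets, and Fos did not pass after adjustment (edgeR adjusted p = 0.648). How large a difference the test could call was not assessed.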
